A study of Mus musculus with 13 samples.

Results

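The expression of 10 genes that are widely used to recognize macrophages and their functional states was examined in mammary tumors from TSG101-overexpressing mice and in normal mammary glands. The genes were chosen by their symbols (Csf1r, Adgre1, Cd68, C1qa, C1qb, C1qc, Mrc1, Cd163, Mertk and Arg1). All 10 were present among the 15213 genes of the expression table. RNA sequencing had been performed on 10 mammary tumors from 6 females with the genotype MtTA Teto-TSG101wt, and on mammary glands from 3 wild-type females of the FVB strain. In the tumor-bearing females, the tetracycline-controlled transactivator tTA was driven by the Mouse Mammary Tumor Virus (MMTV) promoter and switched on a TetO-controlled, HA-tagged copy of Tsg101, a component of the ESCRT machinery for membrane scission. The transactivator acts in the absence of doxycycline, and the MMTV promoter directs it mainly to glandular epithelium such as that of the mammary gland. Tumors 2 and 3 came from the same mouse, as did tumors 5 and 6 and tumors 8, 9 and 10, whereas tumors 1, 4 and 7 and each gland came from separate mice. The glands carried neither transgene. The labels give no age or reproductive stage, and they name 2 sequencing sites without assigning the libraries to them.

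Macrophages are phagocytes of the innate immune system that settle in nearly every tissue. In the mammary gland they surround the ducts and take part in branching and in the removal of dying cells and milk after weaning, and in mammary tumors they are among the most frequent immune cells. Their survival depends on the receptor Csf1r. They engulf dying cells through receptors such as Mertk, digest them in lysosomes that contain Cd68, and supply most of the C1q that starts the classical complement pathway. Macrophages that respond to interleukins 4 and 13 carry the mannose receptor Mrc1 and the enzyme arginase 1, and many tissue-resident macrophages carry the scavenger receptor Cd163.

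The values are normalized cpm as deposited, that is, reads per gene divided by the normalized size of the library. The tumor libraries held between 6176269 and 16835397 reads in listed genes and the gland libraries between 11672487 and 23889042. A value of 3 reads corresponded to 0.141 to 0.683 normalized cpm in the tumors and to 0.128 to 0.366 in the glands. These limits cover counting error only. Transcripts of Tsg101 ranged from 49.9 to 101 normalized cpm in the tumors, with a median of 63.4, and were 45.6, 53.0 and 61.0 in glands 1, 2 and 3. Tsg101 exceeded all glands in 6 of the 10 tumors, and the difference did not pass the test (log2 fold change 0.30, SE 0.20, limma adjusted p = 0.296). The summed level of 11 listed T cell genes was 636 and 563 in glands 1 and 3 but 32.9 in gland 2, and that of 10 B cell genes was 414 and 377 but 7.33, so that the glands differed in lymphoid content. The summed level of 7 listed milk genes was 165034, 190125 and 305121 in glands 1, 2 and 3 and 1384 to 76623 in the tumors. The part of this difference in the comparisons below was not tested. Tumor 9 had the highest share of ribosomal RNA precursor reads (Rn45s, 27.4%). In bulk tissue, fewer macrophages and less RNA per macrophage cannot be told apart.

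C1q is built from the products of C1qa, C1qb and C1qc, which lie next to each other on chromosome 4 (GRCm38). The 250 bases before the start of 2 members with higher values in the tumors are shown to place the short motifs GAGGAA, which contains the core bound by the macrophage transcription factor PU.1, and GGAAGT, a general ETS-type sequence. Both strands were searched, and capitals mark a match in either orientation (TTCCTC and ACTTCC are the reverse complements). Where these windows reach into an annotated exon, as for C1qc and Mrc1, only the 30 bases around the first match are given. The sequences are from RefSeq (GRCm38.p6), are printed in the direction of the gene, and were found there for 6 of the 10 members.

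C1qb, chr4:136886201-136886450, minus strand: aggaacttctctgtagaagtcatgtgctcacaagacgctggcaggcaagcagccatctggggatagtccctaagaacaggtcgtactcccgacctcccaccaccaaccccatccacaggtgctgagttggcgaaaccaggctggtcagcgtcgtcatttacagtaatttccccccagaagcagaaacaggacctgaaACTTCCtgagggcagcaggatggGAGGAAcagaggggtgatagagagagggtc

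Cd68, chr11:69666171-69666420, minus strand: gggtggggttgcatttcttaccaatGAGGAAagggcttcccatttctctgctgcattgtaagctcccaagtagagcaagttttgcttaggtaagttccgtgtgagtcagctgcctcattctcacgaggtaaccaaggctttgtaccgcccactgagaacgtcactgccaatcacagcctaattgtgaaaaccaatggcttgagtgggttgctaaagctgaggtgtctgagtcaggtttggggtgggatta

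C1qc, chr4:136893091-136893120, minus strand: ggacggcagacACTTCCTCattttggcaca

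Mrc1, chr2:14229192-14229221, plus strand: cacttctccccACTTCCtgcgttttctcct

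The C1qb window held GAGGAA beginning 30 bases before the start and the reverse complement of GGAAGT beginning 53 bases before it. In C1qc, the reverse complements of both motifs overlapped within 8 bases, beginning 195 bases before the start. Cd68 held GAGGAA once, beginning 225 bases before the start. Mrc1 held the reverse complement of GAGGAA 3 times and that of GGAAGT once. No match was found in the windows of Cd163 and Mertk. C1qa, Arg1, Adgre1 and Csf1r were not examined. At least one of the motifs occurred in 36.7% of all 32851 windows of this length (GAGGAA in 23.3%, GGAAGT in 19.7%), so that the matches are common letters and are given as a description only.

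To determine whether transcripts of macrophage genes differed between the tumors and the glands, each gene was compared across all 13 libraries with limma on log2(normalized cpm + 1). A gene was called when its false discovery rate (FDR) was below 0.05 and its change exceeded 2-fold. Of the 10 members, Cd68 and Arg1 were called higher and 0 were called lower. Of all 15213 genes, 10.4% were called higher and 10.1% lower, and of the 11795 genes that passed a filter on low values, 10.2% were called higher and 6.99% lower. By the FDR alone, 6 members were higher (Adgre1, Cd68, C1qa, C1qb, C1qc and Arg1), against 14.8% of the filtered genes and 15.3% of all genes. Lower members were 0 in limma, edgeR and DESeq2 under the scalings of the deposited values and of these tools, against 13% and 16%. No member was lower at an unadjusted p below 0.05 in this fit, and 1 to 4 were in some other limma fits (1 with a pseudocount of 2, with voom, with the tumors of each mouse averaged or without tumor 2, 7 or 8, 2 without tumor 6, and 3 and 4, all past the FDR, under the epithelial and myeloid scalings described next). Of the 11795 filtered genes, 7353 and 8453 were lower past the FDR under the epithelial and myeloid scalings. Cd163 did not pass the filter and was taken from the fit without it, and the other 9 members passed. Because the tumors were the larger group, a gene above 5 normalized cpm only in the glands could not pass. A gene above it only in the tumors could, and Arg1 passed in this way, so that the filtered shares favor higher genes. In 4 members (C1qa, C1qb, C1qc and Arg1) every tumor lay above every gland, against 10.7% of the filtered genes and 11.4% of all genes. Every tumor lay below every gland in 0 members, against 8.53% of the filtered genes and 10.3% of all genes. The median log2 fold change of the 10 members was 0.77, and that of all genes tested was 0.01.

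Other scalings moved all genes together. When the libraries were scaled to 17 epithelial genes, the median of all genes moved to -0.89. When they were scaled to 6 pan-macrophage or myeloid genes (Tyrobp, Fcer1g, Aif1, Ctss, Spi1 and Fcgr3), it moved to -1.17. The members whose sign turned had fold changes smaller than this offset of all genes. Under the myeloid scaling, Arg1 was the only member still called higher, and Csf1r, Mrc1, Cd163 and Mertk were called lower. Of the 11795 filtered genes, 475 were called higher and 7170 lower under this scaling, and 512 and 4880 under the epithelial one. Lower calls were thus common among all genes. The levels and fold changes below are those of the deposited scaling, and for genes with a printed fold change the sign is given where it turned under these 2 scalings.

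**Figure D1:**
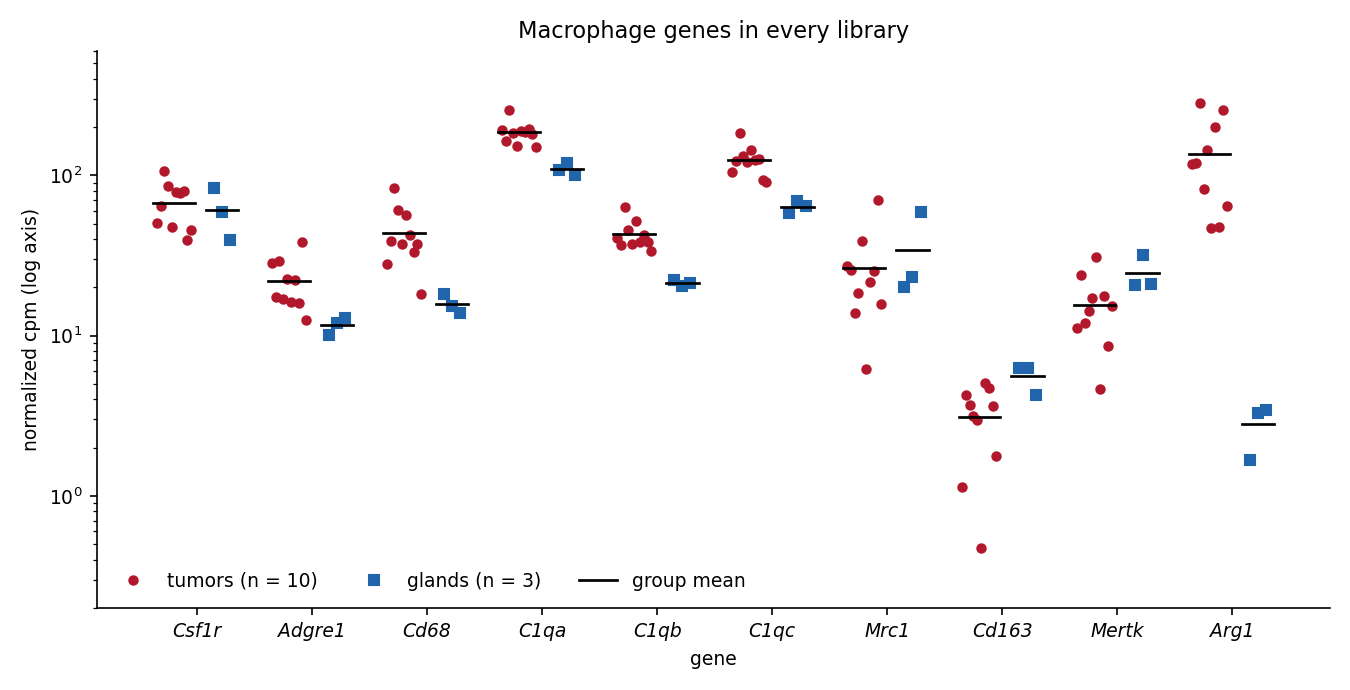
Normalized cpm (log axis) of the 10 macrophage genes in each of the 10 tumors (circles) and 3 glands (squares), with lines at the group means. Arg1 sits between 47.3 and 281 in the tumors and between 1.67 and 3.41 in the glands, the C1q genes are also separate between the groups, and Csf1r and Mrc1 overlap.

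Csf1r encodes the receptor for the growth factors CSF1 and IL-34. Its level in the tumors ranged from 39.6 normalized cpm in tumor 9 to 107 in tumor 3, with a median of 71.1, and it was 83.9, 59.0 and 39.3 in glands 1, 2 and 3. Tumors and glands overlapped, and 8 of the 10 tumors lay within the range of the glands. The means were 67.7 ± 21.5 (SD, n = 10) and 60.7 ± 22.4 (SD, n = 3), with a log2 fold change of 0.16 (95% confidence interval -0.47 to 0.78, limma adjusted p = 0.737). The estimate turned negative without gland 3 (-0.12), under the epithelial scaling (-0.77) and under the myeloid scaling (-1.05). The exons of Csf1r on chromosome 18 overlap those of Hmgxb3 on the opposite strand, and because the sources used here do not say whether strand was used in counting, reads from the 2 genes cannot be told apart.

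Adgre1 encodes F4/80, an adhesion receptor of mature mouse macrophages. It ranged from 12.4 normalized cpm in tumor 10 to 38.5 in tumor 9, with a median of 19.9, and was 10.1, 11.98 and 12.8 in the glands. Of the 10 tumors, 9 lay above all glands. The mean was 21.96 ± 7.97 (SD, n = 10) against 11.6 ± 1.36 (SD, n = 3), and the log2 fold change of 0.79 (SE 0.27) passed the FDR but not the 2-fold limit (limma adjusted p = 0.0419). This call was lost when tumor 1, 3, 5 or 7 or any of the glands was left out (adjusted p between 0.0213 and 0.173 over all omissions), and the sign turned under the epithelial (-0.09) and myeloid (-0.37) scalings.

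Cd68 encodes a glycoprotein of late endosomes and lysosomes that is abundant in phagocytes. It ranged from 18.1 normalized cpm in tumor 10 to 83.2 in tumor 3, with a median of 38.3, and was 18.2, 15.3 and 13.8 in the glands. Tumor 10 was the only tumor that did not exceed all glands. Cd68 was called higher, with means of 43.6 ± 18.6 (SD, n = 10) against 15.8 ± 2.27 (SD, n = 3) and a log2 difference of 1.31 (SE 0.33, limma adjusted p = 0.00828). The fold change remained positive but no longer passed the test under the epithelial (0.41, adjusted p = 0.231) and myeloid (0.13, adjusted p = 0.775) scalings. The ratio of Cd68 to Csf1r within a library was 0.394 to 0.948 in the tumors and 0.217 to 0.351 in the glands. How many other genes separate the groups by such a ratio was not determined.

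The recognition subunits of complement were the most even members. C1qa, which encodes the A chain, ranged from 151 normalized cpm in tumor 10 to 256 in tumor 3, with a median of 185, against 108, 120 and 101 in the glands. C1qb, for the B chain, ranged from 33.8 to 63.3 with a median of 39.8, against 22.2, 20.5 and 21.5. C1qc, for the C chain, ranged from 90.6 to 184 with a median of 124, against 58.1, 69.1 and 64.5. All 10 tumors lay above all 3 glands for each chain, and tumor 10 was the lowest and tumor 3 the highest for all of them. The log2 fold changes were 0.74 (SE 0.16, limma adjusted p = 0.00312) for C1qa, 0.95 (SE 0.17, limma adjusted p = 8.07e-04) for C1qb and 0.93 (SE 0.19, limma adjusted p = 0.00200) for C1qc, so that all passed the FDR and missed the 2-fold limit. C1qb was at the limit on recovered reads: it was called higher by edgeR's quasi-likelihood test with the deposited scaling (log2 fold change 1.00, adjusted p = 0.00114) and by DESeq2 (1.00, adjusted p = 1.21e-06), and not by the edgeR test with TMM factors of the filtered genes (0.98, adjusted p = 0.00100). Without the mouse of tumors 8, 9 and 10, both C1qb (1.01) and C1qc (1.04) passed it in limma. Under the epithelial scaling C1qa turned to -0.19 and C1qb and C1qc to 0.04 and 0.00, and under the myeloid scaling the chains were at -0.48, -0.24 and -0.28, none past the test. The coefficient of variation among tumors was 15.9% for C1qa, 20.5% for C1qb and 21.5% for C1qc, below the 31.8% to 67.4% of the other 7 members. The chains also kept similar proportions: C1qc amounted to 2.44 to 3.35 times C1qb in the tumors and to 2.61 to 3.36 times in the glands. The ratio of C1qa to C1qb was 3.63 to 4.84 in the tumors and 4.70 to 5.84 in the glands.

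Mrc1, Cd163 and Mertk are receptors for scavenging and uptake, and none of them passed the test. Mrc1, the mannose receptor CD206, ranged from 6.23 normalized cpm in tumor 6 to 70.1 in tumor 9, with a median of 23.4, and was 20.2, 23.2 and 59.2 in the glands. Tumor 9 and gland 3 stood high in their groups. The log2 fold change was -0.44 (95% confidence interval -1.53 to 0.65, limma adjusted p = 0.567), and it was 0.03 without gland 3. Cd163, the receptor for haemoglobin bound to haptoglobin, was the lowest member in the tumors. It ranged from 0.472 (5 reads) in tumor 6 to 5.03 in tumor 7, with a median of 3.39, and was 6.25, 6.25 and 4.27 in the glands. In 8 of the 10 tumors Cd163 lay below all glands, with a log2 fold change of -0.79 (95% confidence interval -1.59 to 0.01, limma adjusted p = 0.124). Mertk, a receptor tyrosine kinase that recognizes dying cells through the bridging proteins Gas6 and Pros1, ranged from 4.61 in tumor 7 to 31.2 in tumor 6, with a median of 14.9, and was 20.8, 32.1 and 21.1 in the glands. In 8 of the 10 tumors Mertk lay below all glands as well, with a log2 fold change of -0.74 (95% confidence interval -1.58 to 0.10, limma adjusted p = 0.182). Both genes were called lower under the epithelial scaling (-1.56 and -1.64) and, together with Mrc1 (-1.63), under the myeloid scaling (-1.84 for Cd163 and -1.91 for Mertk). So were 4880 of the 11795 filtered genes under the epithelial scaling and 7170 under the myeloid scaling.

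Arg1 encodes arginase 1, which converts arginine to ornithine and urea. It was the member with the largest difference. Arg1 ranged from 47.3 normalized cpm in tumor 6 to 281 in tumor 3, with a median of 118, and was 1.67, 3.30 and 3.41 in the glands. Every tumor lay above every gland. The means were 136 ± 84.7 (SD, n = 10) and 2.80 ± 0.977 (SD, n = 3), a ratio of 48.7, and Arg1 was called higher with a log2 fold change of 4.95 (SE 0.51, limma adjusted p = 5.73e-06) on the log2(normalized cpm + 1) scale. It was called higher under every alternative tried, with log2 fold changes from 3.93 to 5.63. Relative to Csf1r in the same library, Arg1 amounted to 0.591 to 6.49 in the tumors and to 0.0199 to 0.0870 in the glands. Arg1 is also expressed by cells other than macrophages, among them hepatocytes and keratinocytes of stratified epithelia. Of 12 listed genes of squamous epithelium, 11 were called higher, and their summed level was 605 to 4190 in the tumors and 17.1 to 41.7 in the glands, where 4 of the genes were at 0 in all libraries. The 4 tumors with the most Arg1 (tumors 3, 9, 7 and 5) were also the 4 with the highest squamous sums (1485, 1394, 4190 and 1155), a match that was looked for after the values were seen. Of 10 listed neutrophil genes, 5 were called higher (Camp, Csf3r, Ltf, S100a8 and S100a9), and the last 3 of these, which epithelium can also express, made up most of their summed level (means in the tumors of 1270 for Ltf, 869 for S100a8 and 427 for S100a9). Mpo, Retnlg, Cxcr2, Mmp8 and Mmp9 were not called (limma adjusted p from 0.103 to 0.669). The part of these cells in the level of Arg1 was not tested.

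**Figure D2:**
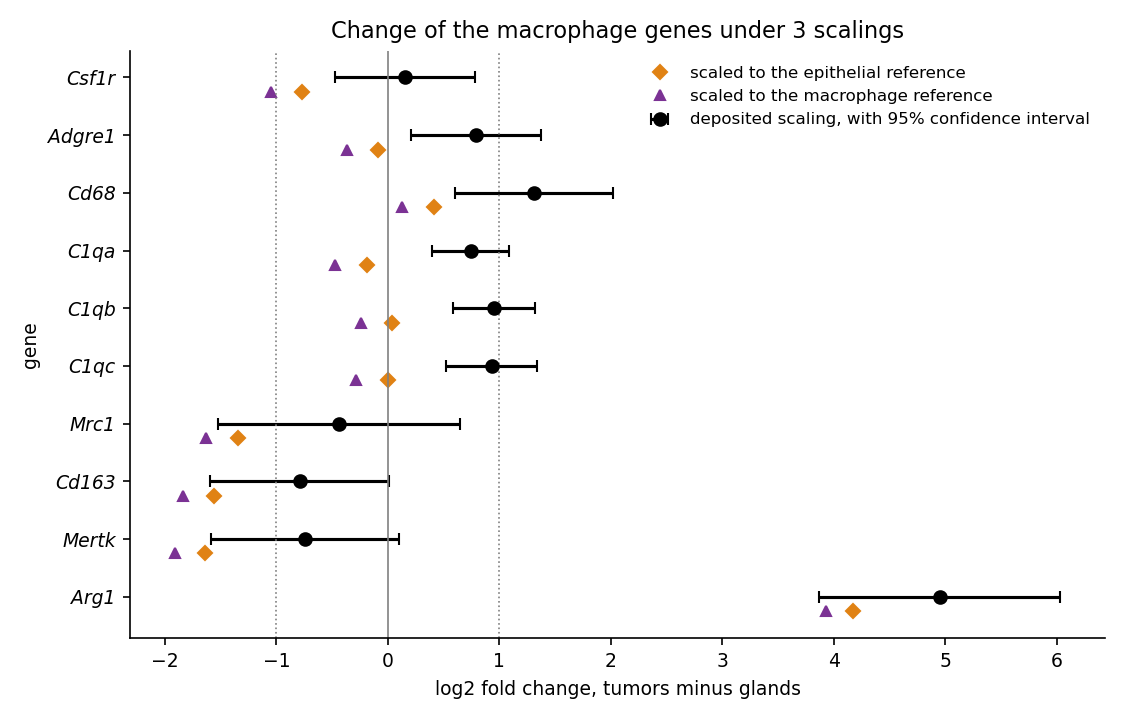
Log2 fold changes of the 10 macrophage genes, tumors minus glands, with the 95% confidence interval under the deposited scaling (circles) and the estimates after scaling to 17 epithelial genes (diamonds) or 6 myeloid genes (triangles). Dotted lines mark the 2-fold limits. Arg1 stays at or above 3.93 under each scaling, whereas Csf1r, Adgre1 and C1qa change sign under both reference scalings and C1qb and C1qc under the myeloid one.

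Compared per kilobase of exon, the order of the levels differed between the groups. In the tumors, C1qa was the highest member with 178 ± 28.4 normalized cpm per kilobase (SD, n = 10), followed by C1qc (64.6 ± 13.9), Arg1 (61.1 ± 37.996), C1qb (39.4 ± 8.10), Cd68 (34.7 ± 14.8), Csf1r (11.7 ± 3.73), Adgre1 (6.78 ± 2.46), Mrc1 (4.13 ± 2.78), Mertk (3.60 ± 1.75) and Cd163 (0.565 ± 0.279). The steps from C1qc to Arg1, Arg1 to C1qb, C1qb to Cd68, Adgre1 to Mrc1 and Mrc1 to Mertk were smaller than the larger of the 2 SDs. In the glands, C1qa (105 ± 9.34, SD, n = 3) was again first, followed by C1qc (33.1 ± 2.87), C1qb (19.7 ± 0.770), Cd68 (12.5 ± 1.81), Csf1r (10.5 ± 3.88), Mertk (5.69 ± 1.48), Mrc1 (5.37 ± 3.41), Adgre1 (3.60 ± 0.419), Arg1 (1.25 ± 0.438) and Cd163 (1.02 ± 0.210). Here the steps from Cd68 to Csf1r, Mertk to Mrc1, Mrc1 to Adgre1 and Arg1 to Cd163 were within the larger SD. Arg1 was the third member in the tumors and the ninth in the glands.

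To examine whether the members varied together among the tumors, each was correlated with Csf1r on the log2 scale. Across the 10 tumors, C1qc was the member that followed Csf1r most closely (r = 0.89, permutation p = 2.30e-04, and rho = 0.94, permutation p = 2.00e-04). The share of all genes with such an r was not determined, and Txnrd3 was nearer to Csf1r (r = 0.98). Reads of Hmgxb3 may also be counted in Csf1r here. C1qb (r = 0.76, permutation p = 0.00744; rho = 0.82, permutation p = 0.00554), Cd68 (r = 0.75, permutation p = 0.0114; rho = 0.70, permutation p = 0.0309) and C1qa (r = 0.69, permutation p = 0.0185; rho = 0.71, permutation p = 0.0269) also increased with Csf1r. Adjusted over the 9 relations with Csf1r, the permutation p of r was 0.00207, 0.0335, 0.0341 and 0.0417 in that order, and that of rho was 0.00180, 0.0249, 0.0696 and 0.0696, so that Cd68 and C1qa did not pass by rank. Mrc1 ran the other way (r = -0.63, permutation p = 0.0456, adjusted 0.0821; rho = -0.62, permutation p = 0.0613). Adgre1 (-0.21), Cd163 (0.19), Mertk (0.09) and Arg1 (-0.09) showed r values closer to 0. Without tumors 9 and 10, which were the farthest from the median of Csf1r, r was 0.81 for C1qc, 0.74 for C1qb, 0.79 for Cd68, 0.74 for C1qa and -0.61 for Mrc1. Because tumors of the same mouse are not independent, the relation was repeated over the means of the 6 mice. There r was 0.84 for C1qc (exact permutation p = 0.0458, adjusted 0.138), 0.92 for Cd68 (exact permutation p = 0.0139, adjusted 0.0938) and -0.83 for Mrc1 (exact permutation p = 0.0208, adjusted 0.0938), but 0.58 for C1qb, 0.39 for C1qa, 0.70 for Cd163 and -0.57 for Adgre1, and 0 of the 9 relations had an adjusted p below 0.05.

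**Figure D3:**
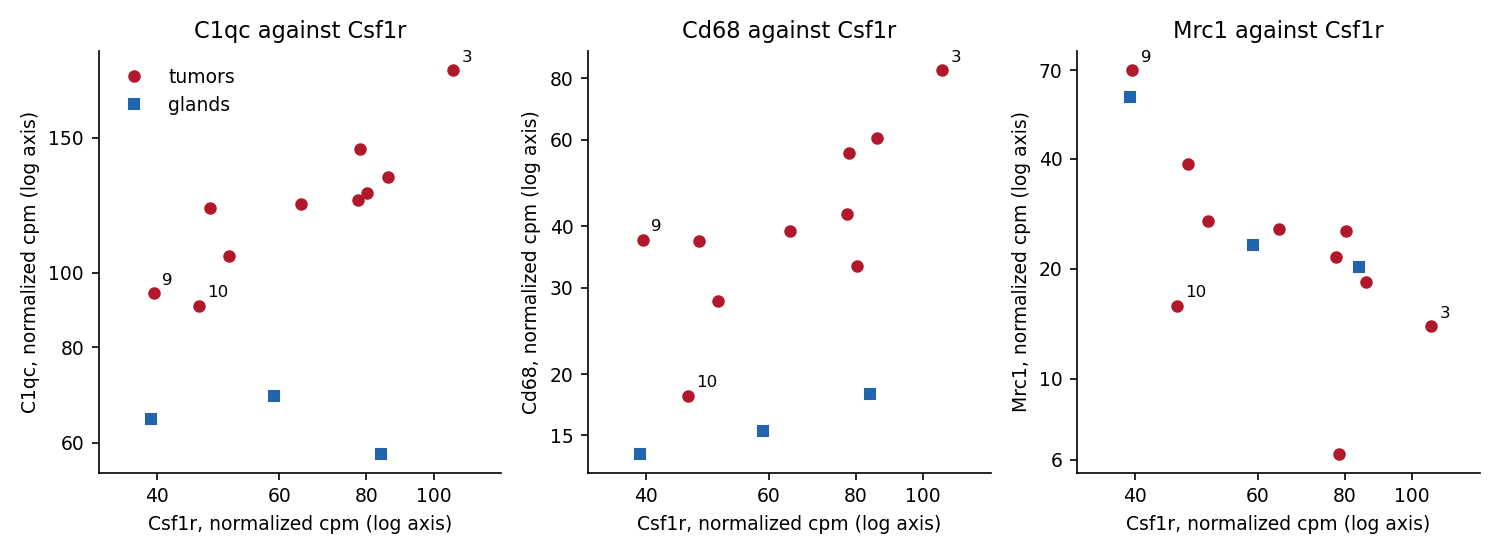
C1qc, Cd68 and Mrc1 against Csf1r in each library (normalized cpm, both axes logarithmic), with tumors as circles, glands as squares and tumors 3, 9 and 10 numbered. C1qc and Cd68 are high in tumor 3, where Csf1r is highest, and Mrc1 is highest in tumor 9, where Csf1r is lowest among the tumors.

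Individual tumors did not rank alike for all members. Tumor 3 had the highest Csf1r, Cd68, C1qa, C1qb, C1qc and Arg1. Tumor 9 had the lowest Csf1r but the highest Adgre1 and Mrc1. Tumor 6 had the lowest Mrc1, Cd163 and Arg1 and the highest Mertk. Among the pairs without Csf1r, given as a description over the 10 tumors, r was highest for Cd68 and C1qc (0.88), C1qa and C1qb (0.87), C1qb and C1qc (0.87), Cd68 and C1qb (0.84) and Adgre1 and Arg1 (0.83). The lowest was that of Mertk and Arg1 (-0.66). The 4 tumors with the most Adgre1 (tumors 9, 3, 1 and 5) were also the highest for the sum of the 6 myeloid genes (1326, 708, 699 and 762, against 401 to 515 in the other tumors), which again was looked for after the values were seen. Tumors of the same mouse also differed. Tumors 5 and 6 differed 6.22-fold in Mrc1 and 6.28-fold in Cd163, and tumors 8, 9 and 10 spanned 5.42-fold in Arg1, but 1.296-fold in C1qa.

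The genes whose levels were most like those of 5 members across the 10 tumors were ranked among the 11795 filtered genes by Pearson's r, with no test. Among the nearest to Csf1r were Txnrd3 (0.98), Phtf1 (0.96), Plekha7 (0.96) and Slc23a2 (0.96). Among the nearest to C1qa were Stk10 (0.88), C1qb (0.87), Gsr (0.83) and Prkca (0.83). Mrc1 was nearest to Pcf11 (0.97), Lekr1 (0.96), the chemokine gene Ccl8 (0.96), the C-type lectin gene Cd302 (0.95) and the tight junction gene Tjp1 (0.95). Cd163 was nearest to Cpeb4 (0.92), Plekhh2 (0.87), Ern1 (0.87), Vamp1 (0.85) and Camkk1 (0.84). Arg1 was nearest to the galectin gene Lgals3 (0.96), Gpat3 (0.95), Aig1 (0.94), the epithelial transcription factor gene Klf4 (0.94) and the lysosomal protease gene Ctsl (0.93). With 10 points, high values are frequent among so many genes.

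Other genes of the pathways to which the members belong were then counted, with the same calls (10.4% higher and 10.1% lower over all genes). Of 18 other macrophage genes, 6 were called higher and 1 lower, with a median log2 fold change of 0.61. Ms4a7, a membrane protein of macrophages, had the largest rise (102 ± 65.9, SD, n = 10, against 15.2 ± 13.1, SD, n = 3, log2 fold change 2.74, limma adjusted p = 8.50e-04). The protease gene Ctss was 184 to 616 in the tumors and 136, 99.7 and 146 in the glands (log2 fold change 1.20, limma adjusted p = 0.00625, but -0.02 under the myeloid scaling, of which it is a part). Siglec1, the sialic acid receptor CD169 of tissue and lymph node macrophages, fell from 14.2 ± 7.28 (SD, n = 3) to 3.12 ± 1.73 (SD, n = 10; log2 fold change -1.87, limma adjusted p = 0.00206), and its glands were at 21.2, 6.71 and 14.8. The lysozyme gene Lyz2 ranged from 555 to 4024 in the tumors and was 475, 189 and 1531 in the glands, and did not pass the test (limma adjusted p = 0.0911).

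Receptors for immunoglobulin and microbial products had the most genes called higher of the 11 lists of macrophage functions. Of 16 genes, 10 were called higher (9 of the 13 past the filter) and 1 was called lower, with a median log2 fold change of 1.24. Clec4d, a C-type lectin receptor, had the largest rise (22.5 ± 13.2, SD, n = 10, against 0.432 ± 0.579, SD, n = 3, log2 fold change 3.85, limma adjusted p = 8.25e-05). Several receptors of this list are shared with neutrophils. Of 10 listed neutrophil genes, 5 were called higher, among them Camp (log2 fold change 3.35) and Csf3r (1.99), and 5 were not called. The part of neutrophils in these receptors was not tested. Fcgr3 was 33.9 to 208 in the tumors and 10.2, 8.31 and 43.2 in the glands (log2 fold change 1.99, limma adjusted p = 0.0102). Cd14, the co-receptor for lipopolysaccharide, was 233 ± 50.1 (SD, n = 10) against 116 ± 38.01 (SD, n = 3), with a log2 fold change of 1.03 (limma adjusted p = 0.00523) that turned to -0.19 under the myeloid scaling. Tlr9, a receptor for unmethylated DNA that B cells also carry, was lower (log2 fold change -1.26, limma adjusted p = 0.00261), with gland 1 at 9.51 and glands 2 and 3 at 2.58 and 3.17. Under the epithelial scaling, 2 genes of the list were called higher and 2 lower among those past the filter. Of all 11795 filtered genes, 512 were called higher and 4880 lower under that scaling.

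In the axis of Csf1r, which comprises its ligands, related colony-stimulating factors and transcription factors of the lineage, 4 of 13 genes were called higher and 2 lower. Csf3r, the receptor for the granulocyte factor G-CSF, rose the most (19.7 ± 14.7, SD, n = 10, against 3.43 ± 1.12, SD, n = 3, log2 fold change 1.99, limma adjusted p = 0.00603). The signalling adaptor gene Tyrobp was 63.5 to 364 in the tumors and 23.0, 23.0 and 114 in the glands (log2 fold change 1.54, limma adjusted p = 0.0376). Cebpa, a transcription factor of myeloid cells and of adipocytes, fell from 212 ± 64.2 (SD, n = 3) to 63.5 ± 22.04 (SD, n = 10; log2 fold change -1.74, limma adjusted p = 3.89e-04), and Cebpb did not pass the test (log2 fold change 0.26, limma adjusted p = 0.667; -0.66 and -0.95 under the epithelial and myeloid scalings). All 10 listed adipocyte genes were called lower, with sums of 40.8 to 452 in the tumors and 3985 to 11563 in the glands, and their part in genes shared with macrophages was not tested. Of 10 monocyte genes, 2 were called higher and 2 lower. Hp, which encodes haptoglobin and is also made by epithelia and adipocytes, rose from 48.5 (46.8, 49.7 and 49.1 in glands 1, 2 and 3) to 779 ± 153 (SD, n = 10; log2 fold change 3.95, limma adjusted p = 1.08e-08), and Ly6c2, a marker of inflammatory monocytes and of some lymphocytes, fell (log2 fold change -2.13, limma adjusted p = 4.43e-04), with glands 1, 2 and 3 at 12.5, 2.79 and 19.0 and the tumors at 0.683 to 2.22.

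Of 21 other complement genes, 5 were called higher and 6 lower, with a median log2 fold change of -0.18. The receptor subunit gene Itgam, which encodes CD11b, rose from 6.67 ± 2.17 (SD, n = 3) to 36.6 ± 10.8 (SD, n = 10; log2 fold change 2.28, limma adjusted p = 3.32e-05). The central component C3 fell from 1599 ± 556 (SD, n = 3) to 398 ± 79.0 (SD, n = 10; log2 fold change -1.96, limma adjusted p = 4.37e-05). Clu, a regulator of the terminal pathway, was also lower (log2 fold change -1.66, limma adjusted p = 0.00230). Cfd, the adipocyte-derived factor D, had the largest fall (log2 fold change -6.25, limma adjusted p = 1.19e-04).

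Among 20 genes for the clearance of dying cells, the pathway of Mertk, 2 were called higher and 7 lower, with a median log2 fold change of 0.03. The bridging protein gene Mfge8, which milk-producing epithelium also expresses, fell from 2408 ± 682 (SD, n = 3) to 602 ± 277 (SD, n = 10; log2 fold change -2.09, limma adjusted p = 9.18e-04). All 7 listed milk genes were called lower, with sums of 165034, 190125 and 305121 normalized cpm in glands 1, 2 and 3 and 1384 to 76623 in the tumors, and the part of this difference in Mfge8, in Spp1 or in the other comparisons was not tested. The scavenger receptor gene Cd36, abundant in adipocytes and endothelium, had the largest fall (log2 fold change -5.07, limma adjusted p = 7.99e-05). Adgrb1, a phosphatidylserine receptor better known from the brain, was 21.6 ± 10.5 (SD, n = 10) in the tumors and 0.0428, 0.361 and 0 in the glands (log2 fold change 4.20, limma adjusted p = 1.43e-06).

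Lists of macrophage states were mixed. In the list of lipid-associated macrophages, 7 of 15 genes were called higher and 4 lower, with a median log2 fold change of 0.90. Gpnmb, a glycoprotein of lipid-laden macrophages, rose from 1.57 ± 0.980 (SD, n = 3) to 74.8 ± 60.7 (SD, n = 10; log2 fold change 4.32, limma adjusted p = 0.00175). Lpl, the lipoprotein lipase of adipocytes and macrophages, fell from 1214 ± 206 (SD, n = 3) to 69.6 ± 37.2 (SD, n = 10; log2 fold change -4.26, limma adjusted p = 2.36e-06). Spp1, which lactating epithelium also expresses, was lower (log2 fold change -1.82, limma adjusted p = 0.0118), and Apoe passed the FDR but not the 2-fold limit (log2 fold change 0.90, limma adjusted p = 0.0227) and turned to -0.04 and -0.33 under the epithelial and myeloid scalings. In the list of classical activation, 4 of 14 genes were called higher and 3 lower. Il1b rose from 2.41 ± 1.93 (SD, n = 3) to 51.6 ± 32.2 (SD, n = 10; log2 fold change 3.79, limma adjusted p = 2.05e-04), whereas the interferon-induced chemokine gene Cxcl9 fell from 40.9 ± 2.79 (SD, n = 3) to 2.15 ± 0.992 (SD, n = 10; log2 fold change -3.80, limma adjusted p = 3.16e-07). The costimulator gene Cd86 did not pass the test (limma adjusted p = 0.241).

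In the list of alternative activation, to which Arg1 and Mrc1 are usually counted, 2 of the other 11 genes were called higher and 3 lower. Clec7a, the beta-glucan receptor dectin-1, rose from 6.95 ± 6.97 (SD, n = 3) to 50.2 ± 34.4 (SD, n = 10; log2 fold change 2.76, limma adjusted p = 0.00220). The chemokine gene Ccl22 was lower (log2 fold change -2.62, limma adjusted p = 0.00768), at 46.9, 2.07 and 29.7 in glands 1, 2 and 3 and at 2.05 ± 1.60 (SD, n = 10) in the tumors. The interleukin receptor gene Il4ra did not pass the test (log2 fold change -0.17, limma adjusted p = 0.753). In the list of tissue-resident macrophages, 1 of 14 genes was called higher and 3 lower. Timd4, a receptor for dying cells, was lower (log2 fold change -2.72, limma adjusted p = 0.00693) and stood at 24.8, 0.981 and 36.6 in the glands. For Ccl22 and Timd4, as for Ly6c2, the glands with high values were glands 1 and 3, those with the high T and B cell sums, and the part of lymphoid tissue in them was not tested. Cbr2, a carbonyl reductase, was higher (187 ± 51.2, SD, n = 10, against 53.2 ± 20.2, SD, n = 3, log2 fold change 1.81, limma adjusted p = 2.12e-04), and the scavenger receptor gene Stab1 did not pass the test (log2 fold change 0.12, limma adjusted p = 0.688) and was at -0.80 and -1.09 under the epithelial and myeloid scalings.

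Of 14 genes of arginine metabolism other than Arg1, 2 were called higher and 3 lower, with a median log2 fold change of -0.02. Sms, the spermine synthase downstream of ornithine, rose from 7.87 ± 3.51 (SD, n = 3) to 53.5 ± 23.6 (SD, n = 10; log2 fold change 2.59, limma adjusted p = 5.26e-05). Gatm, which uses arginine for creatine synthesis, was also higher (log2 fold change 1.62, limma adjusted p = 3.76e-04). Nos3, the endothelial nitric oxide synthase, was lower (log2 fold change -1.77, limma adjusted p = 7.17e-04), as were 8 of 9 listed genes of blood endothelium, and the antizyme inhibitor gene Azin1 did not pass the test (limma adjusted p = 0.263).

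**Figure D4:**
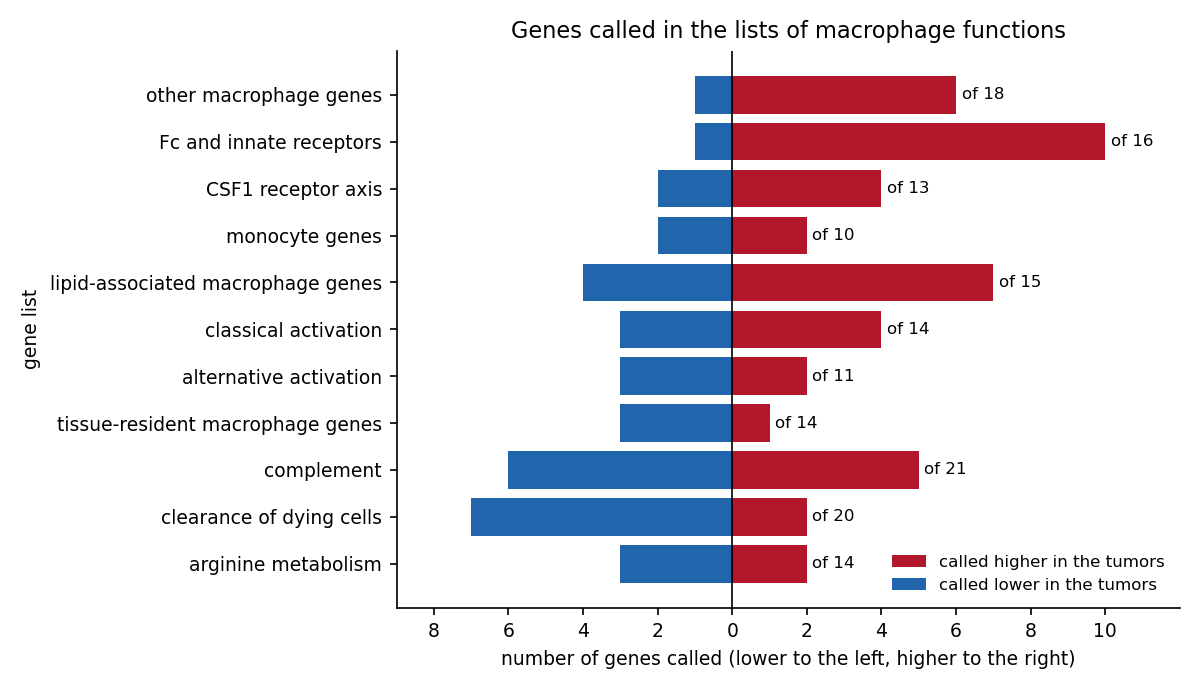
Number of genes called higher (right) and lower (left) in the tumors in 11 lists of macrophage functions, with the number of listed genes measured beside each bar. The immunoglobulin and innate receptors have 10 of 16 genes called higher, and the clearance list has 7 of 20 called lower. These counts are for the deposited scaling, and among the 13 receptor genes past the filter 9 are called higher here, against 2 higher and 2 lower under the epithelial scaling. Under that scaling 512 of all 11795 filtered genes are called higher and 4880 lower.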

How the data were processed

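Total RNA of flash-frozen tumors and glands was sequenced as paired-end reads. The authors aligned the reads to the mm10 genome (Rsubread), obtained read counts per gene from featureCounts and scaled them in edgeR. The deposited signal values are normalized cpm: in each library, 100% of them were whole multiples of the value of 1 read (within 0.02 reads), and read counts were recovered from these steps. The 10 members and all lists were chosen with earlier results of these data known. The filter on low values kept 11795 of 15213 genes and removed genes at or below 5 normalized cpm in at least 7 of the 13 libraries. The tumors and glands were compared with limma 3.58.1 in R 4.3.3 on log2(normalized cpm + 1) with Benjamini-Hochberg adjustment over all genes tested (fold changes on this scale understate those of low genes), and members or list genes outside the filter were taken from the same fit without it. From each list the largest rise and fall among the called genes and the 2 most abundant genes were named, and for 5 members the 5 genes most like them across tumors, of which some are not reported here. Alternatives were edgeR 4.0.16 and DESeq2 1.42.0 on recovered reads, other pseudocounts, filters and scalings, mouse as a random effect or averaged, and each library left out. Permutations (100000, or all for the 6 mice) were two-sided, with scipy 1.17.1. Gene positions are RefSeq (GRCm38), and exon lengths and overlaps are from GENCODE. The fit was also run on simulated counts with independent libraries and a common dispersion. These leave out the shared mice and the differences among the glands, and their outcome is not given here. The p-values treat tumors of the same mouse as separate samples.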

Additional observations from a re-analysis of the deposited data

Results flagged for a closer look

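In each of 49 genes named in the text, the highest and lowest of the 10 tumors were examined for a value far from the others, that is, with a gap to its neighbour of more than 0.466 of the whole range (Dixon's test). Chance flags about 1 in 20 groups when values are normally distributed. The gaps were taken on untransformed normalized cpm and not on the log2 scale of the other tests, so that this rate need not hold. A tumor stood apart in 10 genes, 2 of them members, each time as the highest tumor. C1qa was 256 normalized cpm in tumor 3, with the next tumor at 195. Mrc1 was 70.1 in tumor 9, with the next at 38.7. Tumor 9 was also far above the others in Ctss (616), Tyrobp (364), Fcgr3 (208), Clec7a (128) and Sms (112). Cebpa stood out in tumor 6 (113), Cfd in tumor 4 (124) and Cd36 in tumor 5 (228). In tumor 9, a single read was worth 0.228 normalized cpm, more than in any other library, and the share of Rn45s was the largest (27.4%). Their part in these values was not tested.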

How the results depend on the processing

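The count of members called higher was 2 in the deposited scaling. Over 30 alternatives it was also 2 except that it was 3 on recovered reads with edgeR's quasi-likelihood test under the deposited scaling and with DESeq2 (C1qb being added), 4 without the mouse of tumors 8, 9 and 10, and 1 under the epithelial scaling, the myeloid scaling and the fit with the replicate block. Members past the FDR alone were 6, and 5 to 6 when single libraries were left out, but 1 under the epithelial scaling, 1 under the myeloid scaling and 1 with the replicate block. Members called lower were 2 (past the FDR alone, 3) under the epithelial scaling and 4 (past the FDR alone, 4) under the myeloid scaling. Of the 11795 filtered genes, 7353 and 8453 passed the FDR as lower under these scalings, and 629 and 509 as higher. Under the 2 reference scalings, the log2 fold changes that reversed were those of Csf1r (-0.77), Adgre1 (-0.089) and C1qa (-0.19) under the epithelial scaling and of Csf1r (-1.05), Adgre1 (-0.37), C1qa (-0.48), C1qb (-0.24) and C1qc (-0.28) under the myeloid scaling. Differences that passed no test also changed sign without gland 3 (Csf1r -0.12, Mrc1 0.03) and, for Csf1r, without tumor 9 and gland 3 (-0.04), chosen after seeing the data. Both scalings divide every library by genes that are themselves higher in the tumors on average. Of the 11795 filtered genes, 1204 were called higher and 825 lower. These were 512 and 4880 under the epithelial scaling, 475 and 7170 under the myeloid scaling, and 362 and 182 with the replicate block. Without a filter (15213 genes) or with the milder filter, 1538 genes were called lower. Leaving out single libraries gave 1003 to 1537 genes higher and 658 to 1123 lower, the extremes being without gland 1 and without gland 3. Of the counts for gene lists (genes past the filter), 96 moved and 864 did not. Single libraries moved those called lower for arginine metabolism (1) to 0 without tumor 4, 8, 9 or 10, 2 without gland 3 and 3 without tumor 6, and for monocyte genes (1) to 0 without tumor 10, gland 1 or gland 2. They moved those for tissue-resident genes (0) to between 0 and 3 and for alternative activation (0) to between 0 and 2, both above 0 without any single tumor other than tumor 2 and at their highest without tumor 5 or 6 (for alternative activation, also without tumor 9). Without gland 2, classical activation had 1 gene called lower in place of 0. Without gland 3, classical activation had 4 genes called higher in place of 2, and tissue-resident genes had 2 in place of 1, as also without tumor 6. Without gland 1, the axis of Csf1r had 1 gene called lower in place of 2. When glands 1 and 3 were left out together, an alternative chosen after seeing the data that leaves 1 gland assumed to vary like the tumors, 2 members (C1qb and Arg1) passed the FDR. The members correlated with Csf1r were 4, but 3 under upper quartile scaling and 0 over the means of the 6 mice. The share of all genes for this count was not determined. Samples with the same replicate number came from different mice, and their deviations did not run together (correlations of -0.58, 0.04 and -0.66 for numbers 1, 2 and 3), so that the replicate block pairs samples by number only. The log2 fold change of Arg1 was 3.93 to 5.63 over all alternatives.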

Other observations

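Markers of other leukocytes were counted in the same way. Of 14 pan-leukocyte genes, 4 were called lower by limma under the deposited scaling (background 10.1% of all genes; 0 without gland 1 and 9 without gland 2), and their summed level was 384 to 861 normalized cpm in the tumors and 2107, 642 and 1638 in glands 1, 2 and 3. Of 11 T cell genes, 10 were called lower, and 6 of 10 B cell genes were called lower. Their sums in gland 2 (32.9 and 7.33) lay within the range of the tumors (21.7 to 58.4 and 4.45 to 151). Of 9 dendritic cell genes, 1 was called higher and 5 lower, with sums of 42.7 to 75.9 in the tumors and 163, 41.4 and 156 in the glands.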
